A study of Mus musculus with 20 samples.

Results

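The 10 genes described here encode enzymes that build sugar chains, and their RNA was followed in terminal ileum of mice fed with or without tryptophan (Trp). They are the fucosyltransferase genes Fut1, Fut2, Fut4 and Fut8, the sialyltransferase genes St3gal4 and St6gal1, the N-acetylgalactosaminyltransferase genes B4galnt1 and B4galnt2, and the mucin O-glycan enzyme genes C1galt1 and Gcnt3. The 10 members were chosen by name as fucosyl, sialyl and other glycosyltransferase genes of gut epithelium, and all 10 were found among the 35204 genes of the deposited table. All 10 also reached 0.5 CPM (counts scaled to a common library size) in 1 mouse or more, as did 16306 genes in all, which were the genes tested. Female C57BL/6 mice, 7 weeks old, received an amino acid control diet (CD) or the same diet without Trp (TDD) for 3 weeks, and were either specific pathogen free (SPF) without antibiotics or were given ampicillin, vancomycin, gentamycin, metronidazole and neomycin in sweetened drinking water (ABX). Each of the 4 groups, CD, TDD, CD+ABX and TDD+ABX, held 5 mice. Poly-A RNA of a whole piece of terminal ileum was sequenced from each mouse, to between 36.7 and 58.7 M counts. Because the tissue was whole, fewer cells of a type and less RNA per cell cannot be told apart.

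Glycosyltransferases of the Golgi add single sugars to growing glycans on proteins and lipids, and the last sugars added decide what microbes and lectins meet at the cell surface. Fut2, the secretor enzyme, and Fut1 each add the fucose that makes the H antigen. Epithelial Fut2 is known to be induced through interleukin 22 and lymphotoxin from innate lymphoid cells, and the fucose it exposes can feed commensal bacteria. Fut4 adds fucose inside Lewis-type glycans, Fut8 adds the core fucose of N-glycans, Gcnt3 branches mucin O-glycans on the base that C1galt1 makes, St3gal4 and St6gal1 cap galactose with sialic acid in different linkages, B4galnt1 starts complex gangliosides and B4galnt2 makes the Sd(a) antigen of the gut.

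The label of the tissue was checked against marker genes. The ileal bile acid transporter genes Slc51a and Slc51b lay at 123 to 358 CPM and 58.3 to 107 CPM over the 20 mice. By contrast Fabp6, the ileal bile acid binding protein, lay at only 0.238 to 3.91 CPM in the 10 SPF mice and 2.65 to 144 CPM in the 10 ABX-treated mice, and Slc10a2, the apical bile acid transporter, at 1.38 to 8.80 and 13.2 to 86.0 CPM. Both rose with ABX on either diet, by the quasi-likelihood test of edgeR with p-values adjusted over all genes (q = 0.00585 and 0.0198 for Fabp6, 9.83e-05 and 0.00140 for Slc10a2), with fold changes of 35.2 for Fabp6 and 16.7 for Slc10a2 on CD, and Slc51a (q = 0.0326) and Slc51b (q = 0.0312) rose with ABX on CD as well. The low Fabp6 and Slc10a2 of the SPF mice go against what the label of terminal ileum leads one to look for. These markers moved with ABX, so in every ABX comparison a difference in the position of the piece along the gut cannot be told apart from the treatment. By diet in SPF mice 0 of these 4 markers passed with edgeR and 1 with DESeq2. Slc10a2 lay at 2.35 ± 1.02 CPM in CD and 5.89 ± 1.98 CPM in TDD mice (SD, n = 5 each; log2 fold change 1.32, q = 0.0679, edgeR). By diet with ABX 0 of 4 passed, and 2 had an unadjusted p under 0.05 (edgeR). Whether the position differed between the diets was not tested. The summed level of 7 absorptive enterocyte markers was 16453 CPM in CD mouse 2, against 20388 to 40018 CPM in the other mice. Calls of members that changed without this mouse are therefore given, but not every fold change without it.

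Per transcript length, the members lay at very different levels. In TPM, which corrects for transcript length, over all 20 mice, St3gal4 was highest at 1912 ± 183 (SD, n = 20), followed by B4galnt2 at 273 ± 28.2, B4galnt1 at 215 ± 21.9 and Fut8 at 40.0 ± 4.20. Gcnt3 at 14.4 ± 3.97, C1galt1 at 12.8 ± 1.49 and Fut4 at 8.61 ± 2.31 came next, then St6gal1 at 3.67 ± 1.53, and Fut2 at 1.04 ± 0.418 and Fut1 at 0.708 ± 0.257 closed the order. The order of Gcnt3 and C1galt1 differed between groups: Gcnt3 was above C1galt1 in 0 of 5 CD and 1 of 5 CD+ABX mice, but in 5 of 5 TDD and 5 of 5 TDD+ABX mice. Fut2 was above Fut1 in 1 of 5 CD, 5 of 5 TDD, 5 of 5 CD+ABX and 3 of 5 TDD+ABX mice, so over all 20 mice the ranges of these neighbours overlapped. C1galt1 lay above Fut4 in 18 mice and Fut4 above St6gal1 in 19, and every other neighbour was ordered alike in all 20 mice. The level of St3gal4 depends on how reads were shared among its 9 annotated transcripts: in CD mice, St3gal4-201, of 2095 bases, carried 53.9% ± 1.71 of its TPM, and 2 short ones, of 372 and 348 bases, carried 29.0% ± 3.02 and 11.9% ± 3.15 (SD, n = 5).

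**Figure D1:**
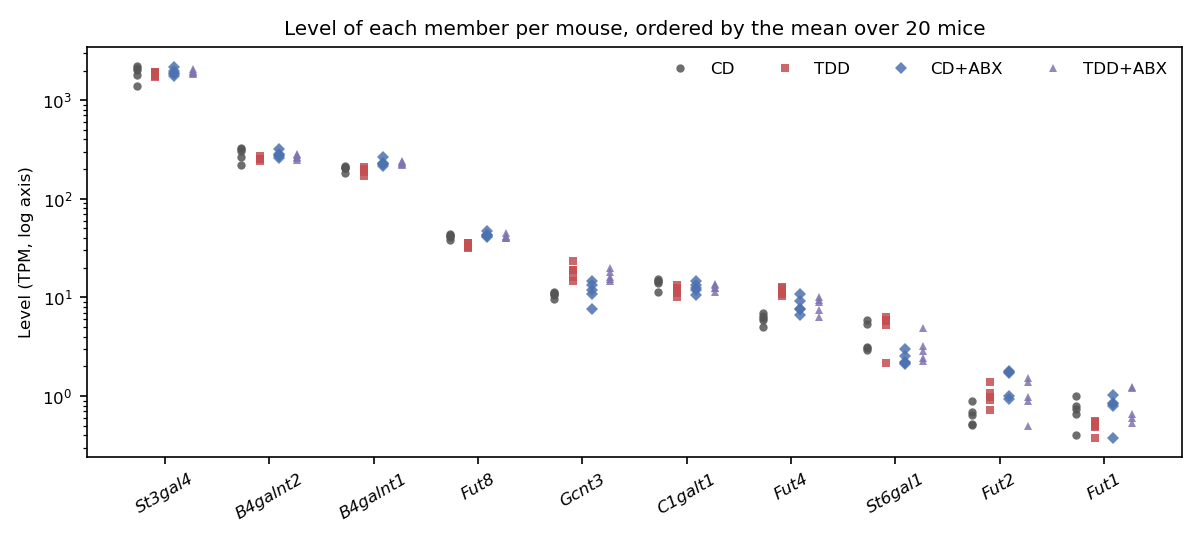
Level of each member in TPM on a log axis, with 1 point per mouse and 1 symbol per group, ordered by the mean over 20 mice. St3gal4 lies above 1400 TPM in every mouse, whereas Fut2 and Fut1 lie at 0.501 to 1.81 and 0.373 to 1.23 TPM.

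The first question was what Trp deficiency did in SPF mice. Fut4 and Gcnt3 rose and Fut8 fell on TDD, so that 3 of 10 members passed the test (q under 0.05), where 14.4% of all genes tested passed. None of the 10 passed at the 2-fold minimum that the study used, which 1.83% of all genes passed. The median log2 fold change of the 10 members was -0.00 and that of all genes 0.01. The groups did not overlap in CPM for 3 members, namely Fut2, Fut4 and Gcnt3, all higher on TDD, where 9.58% of all genes did not overlap in either direction. Without CD mouse 2, 5 members passed: B4galnt2 (log2 fold change -0.21, q = 0.0426, edgeR) and C1galt1 (-0.28, q = 0.0295) joined Fut4, Gcnt3 and Fut8. Calls rose over all genes too, with 3098 of 16211 passing in that fit against 2342 of 16306 with all mice.

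Fut4 (ENSMUSG00000049307.6) is a single-transcript gene on the minus strand of chromosome 9 (GRCm38, 14748320 to 14752393). Its CPM in the 5 CD mice were 18.7, 17.7, 15.2, 22.0 and 20.4. In the TDD mice they were 42.7, 33.1, 35.5, 35.5 and 39.5, and the lowest TDD mouse lay well above the highest CD mouse. The level was thus 18.8 ± 2.61 on CD and 37.3 ± 3.82 on TDD (SD, n = 5 each), so that the log2 fold change was 0.99 with a standard error of 0.15 (q = 0.000229, edgeR). In the 20 fits that each left out 1 mouse, the call held in all 20, with a log2 fold change of 0.92 to 1.05. Fut4 was the member with the lowest q in any comparison.

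Gcnt3 (ENSMUSG00000032226.5; chromosome 9, 70031496 to 70038088, minus strand) lay at 34.0, 30.6, 34.9, 37.9 and 37.7 CPM in the CD mice. The TDD mice had 82.2, 49.4, 52.4, 67.0 and 63.6 CPM, all above every CD mouse and more widely spread. The means were 35.0 ± 3.01 and 62.9 ± 13.1 CPM (SD, n = 5 each), or 0.85 ± 0.16 as log2 fold change ± standard error (q = 0.00157, edgeR), and this call too held without any single mouse.

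Fut8 (ENSMUSG00000021065.16; chromosome 12, 77238125 to 77476338, plus strand) moved little but with a small spread. Its CPM were 86.9, 73.4, 83.4, 87.0 and 90.8 in CD mice and 70.5, 69.6, 75.1, 70.7 and 76.3 in TDD mice. CD mouse 2 was the CD mouse that reached into the TDD range. The means were 84.3 ± 6.62 and 72.4 ± 3.05 CPM (SD, n = 5 each), or -0.22 ± 0.06 as log2 fold change ± standard error (q = 0.0181, edgeR). The call was lost without CD mouse 5 (-0.20, q = 0.0523) and with the CD and TDD mice fitted alone (-0.22, q = 0.0558). In CD mice most of its TPM stood on transcript Fut8-202, at 64.5% ± 2.84, and in TDD mice at 67.2% ± 6.06 (SD, n = 5).

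Fut2 (ENSMUSG00000055978.5; chromosome 7, 45648591 to 45666394, minus strand) was close to the lower limit of the data, with 40 to 149 counts per mouse. Its CPM in CD mice were 1.10, 1.21, 1.12, 1.22 and 0.968. In TDD mice they were 1.56, 1.54, 1.70, 1.54 and 1.39. The 5 TDD mice thus all lay above the 5 CD mice (1.54 ± 0.108 against 1.12 ± 0.101 CPM, SD, n = 5 each), but the log2 fold change of 0.46 (standard error 0.23) did not pass across all genes (q = 0.190, edgeR). Over the alternative settings its q ranged from 0.0509 to 0.345. Fut1 (ENSMUSG00000008461.6; chromosome 7, 45617289 to 45621059, plus strand), whose locus ends 27.5 kb before that of Fut2 begins, had 29 to 81 counts per mouse with means of 1.19 ± 0.409 CPM in CD mice and 0.843 ± 0.203 CPM in TDD mice (log2 fold change -0.49, q = 0.229, edgeR).

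**Figure D2:**
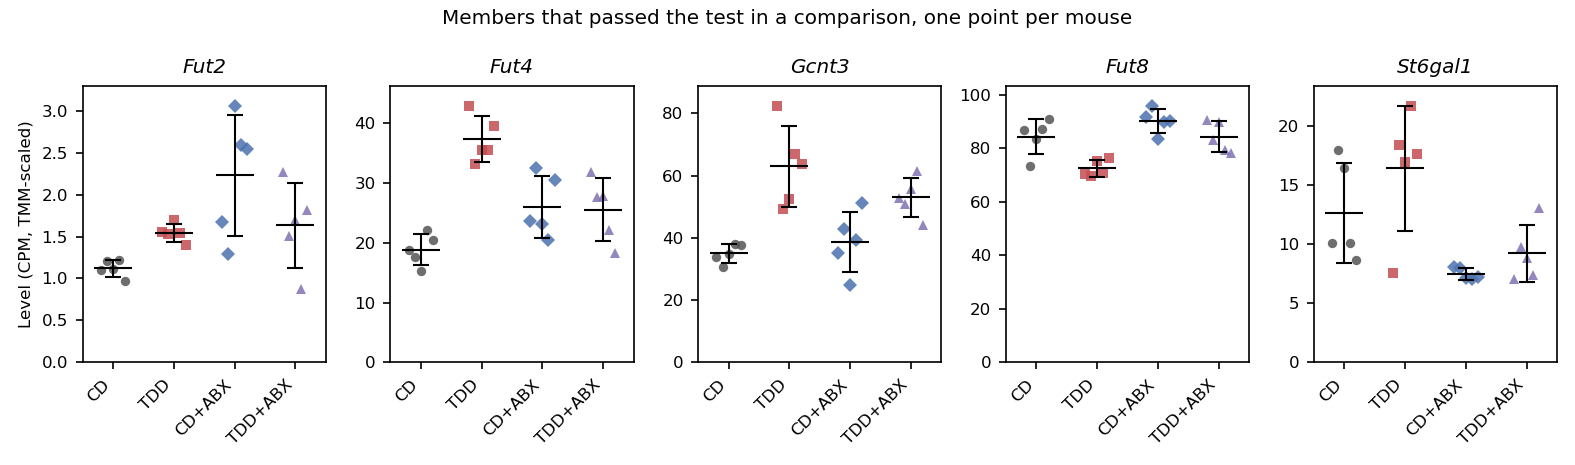
CPM of Fut2, Fut4, Gcnt3, Fut8 and St6gal1, with 1 point per mouse and a black line with bars for the mean ± SD of 5 mice. Fut4 lies at 15.2 to 22.0 CPM in CD mice and at 33.1 to 42.7 CPM in TDD mice, with the ABX-treated mice between 18.3 and 32.5 CPM.

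The same diets were then compared in ABX-treated mice. No member passed (0 of 10), where 1.64% of all genes passed and 0.307% passed with at least a 2-fold change. DESeq2 and limma called 0 of 10 as well. Gcnt3 was the member with an unadjusted p under 0.05, with 38.6 ± 9.75 CPM in CD+ABX mice and 53.0 ± 6.34 CPM in TDD+ABX mice (SD, n = 5 each), or 0.46 on the log2 scale (standard error 0.16, unadjusted p = 0.00885, q = 0.162, edgeR). The groups overlapped for all 10 members, whereas 4.78% of all genes did not overlap. Fut4 was at 26.0 ± 5.16 and 25.5 ± 5.29 CPM (log2 fold change -0.03, approximate 95% interval -0.31 to 0.26). Fut2 was at 2.23 ± 0.721 and 1.63 ± 0.510 CPM (-0.45, q = 0.349, edgeR).

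Whether the diet acted differently in SPF and ABX-treated mice was tested in the same fit with an interaction term. By this term 0 of 10 members passed (edgeR), where 0.0368% of all genes passed and 0.0245% passed with at least a 2-fold difference. Fut4 and Fut2 had an unadjusted p under 0.05. For Fut4 the diet effect was lower by 1.01 on the log2 scale in ABX-treated mice (-1.01, standard error 0.20, unadjusted p = 9.01e-05, q = 0.0735, edgeR), and for Fut2 by 0.91 (-0.91, standard error 0.32, unadjusted p = 0.00924, q = 0.339). DESeq2 called 1 member, Fut4 (-1.01, q = 0.00259), where it called 134 of 16306 genes. So did edgeR without CD+ABX mouse 4 (-1.08, q = 0.0487), where 19 of 16295 genes passed. The rise of Gcnt3 in SPF mice is not shown to differ from its value with ABX (difference -0.39, standard error 0.22, q = 0.651, edgeR). Of the 4 ileal markers Slc51a, Slc51b, Fabp6 and Slc10a2, 0 passed by this term. All 4 were negative (median -0.88), and 2 had an unadjusted p under 0.05 (edgeR). A difference in the position of the piece cannot be told apart in this term either.

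The third question was what ABX did on the control diet. Fut2 and Fut4 rose and St6gal1 fell, 3 of 10 members, where 12.6% of all genes tested passed. At 2-fold or more no member passed, against 2.25% of all genes. The CD and CD+ABX mice did not overlap for 2 members, Fut2 and St6gal1, where 9.74% of all genes did not overlap. The median log2 fold change was 0.10 over the members and -0.00 over all genes. The count fell to 1, Fut2 alone, without CD mouse 2 or 3, TDD mouse 3, TDD+ABX mouse 3, or CD+ABX mouse 2 or 5. In those fits 1436 to 2521 of all genes passed, against 2059 with all mice. CD mice serve in both this comparison and that of the diets in SPF mice.

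Fut2 had 1.68, 1.29, 3.05, 2.59 and 2.54 CPM in the CD+ABX mice, all above the highest CD mouse at 1.22 CPM. Its mean was 2.23 ± 0.721 CPM against 1.12 ± 0.101 (SD, n = 5 each), or 0.99 ± 0.22 as log2 fold change ± standard error (q = 0.00719, edgeR). The call held in all 20 fits without 1 mouse (log2 fold change 0.86 to 1.14). In TDD mice the change with ABX was 0.08 (standard error 0.22, q = 0.841), with TDD+ABX mice at 2.27, 1.501, 1.70, 0.875 and 1.82 CPM on both sides of the TDD mice. Of the gene's 31-base words, 212 of 5459 also occur in transcripts of Sec1, another fucosyltransferase gene, so some reads of the 2 genes could have been split. Other members also shared such words with other genes, 348 of 2884 for St3gal4, 206 of 1692 for B4galnt2 and 471 of 7849 for Fut8.

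Markers of tuft cells rose with ABX on both diets, and Fut2 passed on CD only. All 4 markers, Dclk1, Trpm5, Pou2f3 and Avil, rose in CD+ABX against CD mice (median log2 fold change 0.86), where 12.6% of all genes passed. In TDD+ABX against TDD mice 3 of 4 rose, where 15.4% of all genes passed. The log2 fold change of Fut2 there was 0.08 (q = 0.841, edgeR). None of the 4 markers was at 0 in any group. Their summed level was 38.7 to 54.5 CPM in CD, 29.5 to 41.3 in TDD, 55.6 to 108 in CD+ABX and 45.1 to 74.5 CPM in TDD+ABX mice. CD+ABX mouse 3 held both the highest sum and the highest Fut2. In TDD+ABX mice, mouse 5 held the highest sum (74.5 CPM) and mouse 1 the highest Fut2 (2.27 CPM). By diet in SPF mice, Fut2 lay higher on TDD without passing (q = 0.190, edgeR). The tuft marker sums lay lower there with overlapping ranges (median log2 fold change of the 4 markers -0.25, none passing). Over the 20 mice, the genes whose log2(CPM + 1) was most like that of Fut2 were Rgs22 (Pearson's r = 0.833), Matk (0.833), Ccnj (0.797), Tmem181b-ps (0.796) and Bmx (0.782), out of 14047 genes with a mean of at least 1 CPM. The part of tuft cells in the change of Fut2 was not tested.

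**Figure D3:**
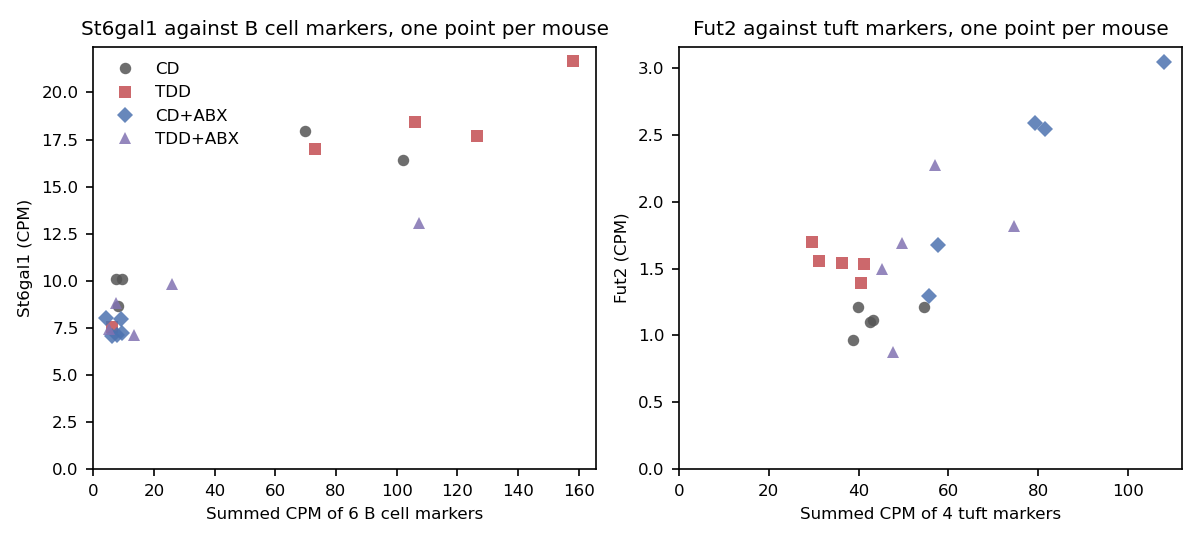
St6gal1 against the summed CPM of 6 B cell markers (left) and Fut2 against the summed CPM of 4 tuft markers (right), with 1 point per mouse and 1 symbol per group. St6gal1 lies at 13.0 to 21.7 CPM in the mice with B cell sums of 69.8 CPM or more and at 7.04 to 10.1 CPM in the others, and in the right panel CD+ABX mice 3, 4 and 5 lie highest in Fut2.

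Fut4 lay at 23.5, 32.5, 23.0, 20.5 and 30.4 CPM in the CD+ABX mice, of which 1 lay within the CD range. The log2 fold change against CD was 0.47 (standard error 0.15, q = 0.0414, edgeR). This call was close to the threshold: it held in 12 of 20 fits without 1 mouse (q from 0.0254 to 0.116) and was lost without CD mouse 1, 2, 3 or 5, TDD mouse 3, TDD+ABX mouse 3, or CD+ABX mouse 2 or 5. It was also lost with limma-voom (q = 0.0568), with no filter on low counts (q = 0.0626) and with the 2 groups fitted alone (q = 0.0592).

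St6gal1 (ENSMUSG00000022885.16; chromosome 16, 23224740 to 23360350, plus strand) fell with ABX on both diets. It lay at 10.1, 17.98, 16.4, 10.1 and 8.67 CPM in CD mice and at 8.05, 7.98, 7.14, 7.04 and 7.22 CPM in CD+ABX mice, which lay below every CD mouse. The log2 fold change was -0.76 (standard error 0.24, q = 0.0469, edgeR). In TDD mice it lay at 7.55, 18.4, 17.0, 21.7 and 17.7 CPM, and in TDD+ABX mice at 7.11, 9.80, 8.82, 7.42 and 13.0 CPM, so TDD mouse 1 lay within the ABX range. The log2 fold change was -0.83 (standard error 0.24, q = 0.0268, edgeR). The call on CD held in 7 of 20 fits without 1 mouse (q from 0.0125 to 0.123) and was lost without any of the 5 CD+ABX mice, CD mouse 2 or 3, TDD+ABX mouse 1, 2 or 3, or TDD mouse 2, 3 or 5. The call on TDD held in 12 of 20 (q from 0.00334 to 0.0803) and was lost without any of TDD mice 2 to 5 or TDD+ABX mice 1 to 4. Over 11 other settings, the call on CD held in 6, and it was lost with no filter on low counts (q = 0.0789), limma-voom (q = 0.0959), log2(TPM + 1) (q = 0.130) and log2(TPM + 0.1) (q = 0.121) among others. The call on TDD held in 8, and it was lost with the 2 groups fitted alone (q = 0.0580), log2(TPM + 1) (q = 0.0901) and log2(TPM + 0.1) (q = 0.0979).

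Mice with a high level of B cell markers had high St6gal1, for which B cells are known, but within the mice of high or of low sums the order of both did not always match. The summed level of 6 markers (Cd79a, Cd79b, Ms4a1, Cr2, Cd22 and Pax5) was 69.8 and 102 CPM in CD mice 2 and 3, where St6gal1 was 17.98 and 16.4 CPM, and 7.54 to 9.42 CPM in the other 3 CD mice, where St6gal1 was 8.67 to 10.1 CPM. In TDD mice 2 to 5 the sum was 73.1 to 158 CPM with St6gal1 at 17.0 to 21.7 CPM, and in TDD mouse 1 it was 6.22 CPM with St6gal1 at 7.55 CPM. In CD+ABX mice the sum was 4.36 to 9.52 CPM. In TDD+ABX mice it was 107.5 CPM in mouse 5, which had the highest St6gal1 of its group, and 5.31 to 26.1 CPM in the others. With edgeR 0 of the 6 markers passed in any comparison, although all 6 had an unadjusted p under 0.05 by ABX on CD, where DESeq2 called 3, and 4 had one by diet with ABX. None was at 0 throughout a group. The genes most like St6gal1 over the 20 mice were H2-Oa (Pearson's r = 0.963), Ighm (0.961), Hvcn1 (0.959), Tnfrsf13b (0.957) and Cnr2 (0.954), and these coefficients span mice in separate ranges. Among the mice with sums of 9.52 CPM or less, CD mice 1, 4 and 5 had St6gal1 at 8.67 to 10.1 CPM and the 5 CD+ABX mice at 7.04 to 8.05 CPM. TDD mouse 1 (7.55 CPM) lay within the range of those CD+ABX mice, TDD+ABX mouse 3 (8.82 CPM) within that of those CD mice, and TDD+ABX mouse 4 had 7.42 CPM. With ABX, T cell markers fell too (3 of 4 on CD and 2 of 4 on TDD), and of 4 plasma cell markers 3 fell on TDD, while on CD 1 rose and 1 fell. Of all genes, 12.6% passed with ABX on CD and 15.4% on TDD. The part of B, T or plasma cells in the calls was not tested.

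Most St6gal1 came from transcripts with 2 start sites on chromosome 16, and the 250 bases before each are shown because St6gal1 passed with ABX and most of its TPM stood on these 2 starts. St6gal1-205, which starts at 23226021, carried 80.7% ± 6.82 of the gene's TPM in CD, 77.1% ± 10.6 in TDD, 71.4% ± 10.3 in CD+ABX and 76.6% ± 8.42 in TDD+ABX mice (SD, n = 5), and St6gal1-201, which starts at 23224740, carried 15.7% ± 6.73, 19.5% ± 10.2, 24.9% ± 11.5 and 18.6% ± 7.33. These shares overlapped between all groups. The sequences are from RefSeq on GRCm38, plus strand, 5′ to 3′, at chr16:23224490-23224739 and chr16:23225771-23226020, and capitals mark GCGTG, the core of the element bound by the aryl hydrocarbon receptor, a sensor of Trp metabolites, or its reverse complement CACGC. The first holds 1 match and the second 0, and 28.2% of 32851 windows of the same length hold at least 1. St6gal1 was not alone in this: with 50 bases after the start included, 5 of 12 member windows held a match. These were of C1galt1, Fut8, St3gal4 and St6gal1, against 32.4% of all windows. A match of these letters is a description and not a site.
St6gal1-201: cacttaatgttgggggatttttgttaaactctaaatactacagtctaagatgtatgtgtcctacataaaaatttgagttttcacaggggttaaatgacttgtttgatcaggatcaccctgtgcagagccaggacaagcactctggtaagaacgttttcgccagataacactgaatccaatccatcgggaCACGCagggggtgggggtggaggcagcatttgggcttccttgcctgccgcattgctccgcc
St6gal1-205: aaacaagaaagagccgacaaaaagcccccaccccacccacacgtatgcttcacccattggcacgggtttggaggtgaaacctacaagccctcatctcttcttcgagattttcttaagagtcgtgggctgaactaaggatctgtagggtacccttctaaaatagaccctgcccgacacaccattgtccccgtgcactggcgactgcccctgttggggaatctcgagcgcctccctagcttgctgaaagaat

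On TDD, ABX changed 3 of 10 members: Fut4 and St6gal1 fell and Fut8 rose, where 15.4% of all genes tested passed. None passed at 2-fold, against 1.63% of all genes. TDD and TDD+ABX mice did not overlap for 2 members, Fut4 and Fut8, against 11.0% of all genes, and the median log2 fold change was -0.02 over the members and -0.03 over all genes. Fut4 lay at 31.7, 27.6, 27.8, 22.1 and 18.3 CPM in the TDD+ABX mice, all below the lowest TDD mouse at 33.1 CPM (log2 fold change -0.55, standard error 0.14, q = 0.0169, edgeR), and the call held in all 20 fits without 1 mouse. Fut8 lay at 90.5, 83.1, 89.9, 79.3 and 78.1 CPM, all above the highest TDD mouse at 76.3 CPM (log2 fold change 0.22, standard error 0.06, q = 0.0202, edgeR). Its call was lost without TDD+ABX mouse 1 (0.20, q = 0.0557) or 3 (0.21, q = 0.0515), and without either of them 1 of 10 members, Fut4, passed. In these 2 fits 1367 and 1500 of 16299 genes passed, against 2505 of 16306 with all mice. Since TDD mice serve in this comparison and in that of the diets in SPF mice, the opposite directions of Fut4 and Fut8 in them share those 5 mice.

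**Figure D4:**
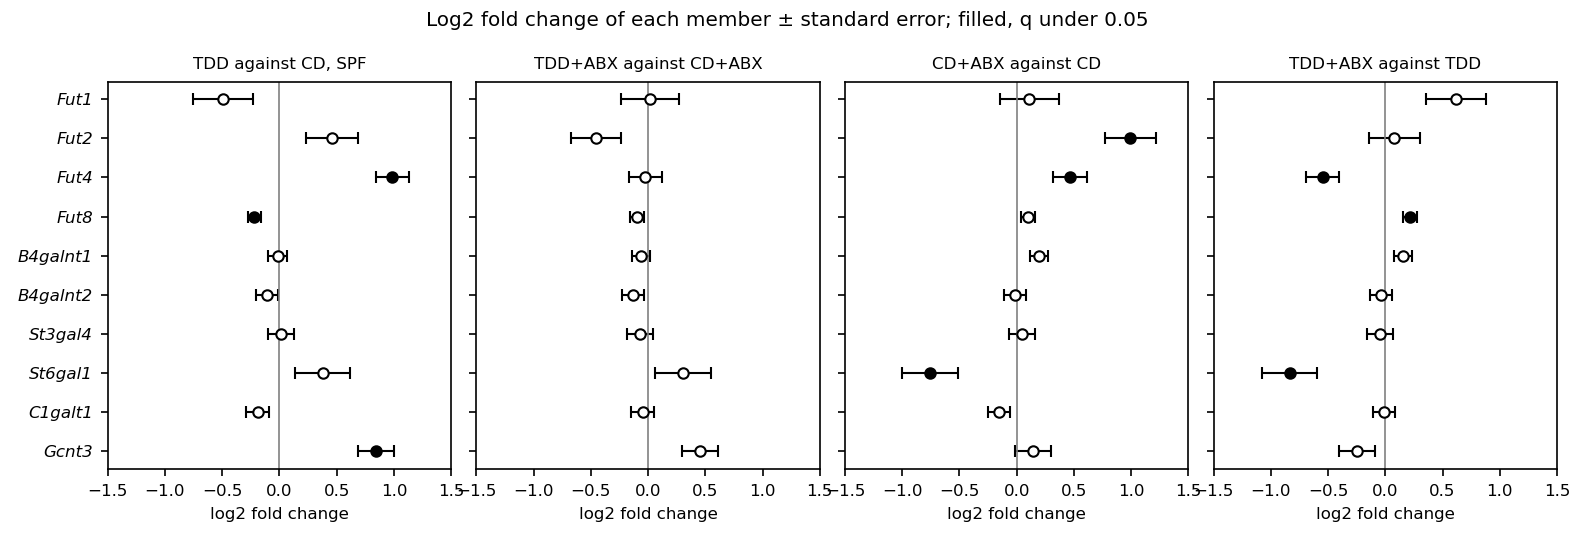
Log2 fold change of each member in the 4 comparisons, with bars for the standard error from edgeR. Filled points passed at q under 0.05: Fut4, Fut8 and Gcnt3 in SPF mice by diet, none by diet with ABX, Fut2, Fut4 and St6gal1 by ABX on CD, and Fut4, Fut8 and St6gal1 by ABX on TDD.

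The genes most like Fut4 over the 20 mice were Klf13 (Pearson's r of log2(CPM + 1) = 0.876), Tbc1d30 (0.847), Hs6st1 (0.842), Fam133b (0.842) and Fkbp5 (0.840). For Gcnt3 they were Clec2e (0.879), Ric8a (0.876), Gnb5 (0.874), Acvr1b (0.874) and Gas2l3 (0.872), and for Fut8 they were Umad1 (0.906), Bcl2l13 (0.889), Snx1 (0.878), Prkar2a (0.876) and Sco1 (0.871). The mice share libraries and groups in each coefficient, so these are descriptions.

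The other 5 members passed in none of the 4 comparisons. St3gal4 (ENSMUSG00000032038.7; chromosome 9, 35046576 to 35119268, minus strand) lay at 1727 ± 300 CPM in CD, 1746 ± 153 in TDD, 1779 ± 243 in CD+ABX and 1694 ± 34.9 CPM in TDD+ABX mice (SD, n = 5 each), and its diet effect in SPF mice was 0.02 with an approximate 95% interval of -0.21 to 0.24 on the log2 scale. B4galnt2 (ENSMUSG00000013418.8; chromosome 11, 95865943 to 95914891, minus strand) lay at 353 ± 58.9, 327 ± 11.6, 349 ± 31.6 and 319 ± 15.9 CPM in the same order. In both genes CD mouse 2 was the lowest of its group, at 1215 CPM for St3gal4 and 256 CPM for B4galnt2.

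B4galnt1 (ENSMUSG00000006731.10; chromosome 10, 127165225 to 127172330, plus strand) lay at 327 ± 27.4 CPM in CD, 323 ± 23.9 in TDD, 375 ± 45.3 in CD+ABX and 361 ± 14.4 CPM in TDD+ABX mice (SD, n = 5 each). Its log2 fold change with ABX was 0.20 on CD (q = 0.106, edgeR) and 0.16 on TDD (q = 0.183), and on the TPM scale the latter passed (0.27, q = 0.00520, limma on log2(TPM + 1)). On that scale 2615 of 16109 genes rose and 546 fell with ABX on TDD, against 1164 and 1341 of 16306 with edgeR. Of the 3447 31-base words of B4galnt1, 686 also occur in transcripts of Slc26a10, so reads could have been split between them. C1galt1 (ENSMUSG00000042460.5; chromosome 6, 7844842 to 7875687, plus strand) lay at 65.9 ± 8.96, 57.8 ± 5.36, 59.3 ± 7.09 and 57.4 ± 4.64 CPM in the same order. Fut1 was at 1.28 ± 0.341 CPM in CD+ABX and 1.30 ± 0.363 CPM in TDD+ABX mice, and against TDD mice the latter gave a log2 fold change of 0.62 (standard error 0.26, unadjusted p = 0.0276, q = 0.112, edgeR).

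**Figure D5:**
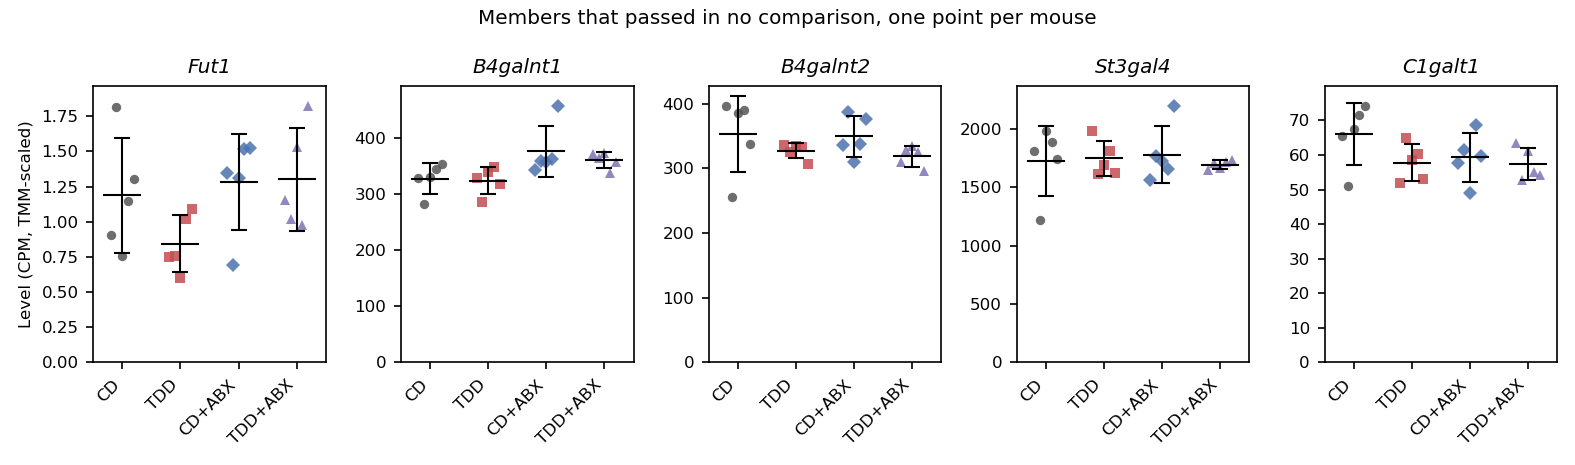
CPM of Fut1, B4galnt1, B4galnt2, St3gal4 and C1galt1, with 1 point per mouse and a black line with bars for the mean ± SD of 5 mice. In CD mouse 2, B4galnt2 (256 CPM) and St3gal4 (1215 CPM) lie below all other mice.

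Around the members, 79 genes of the same pathways were tested, from lists of fucose and sialic acid supply, other fucosyl- and sialyltransferases, O-glycan and glycolipid enzymes, relatives of B4galnt2, and glycosidases. By diet in SPF mice, 4 rose and 8 fell (15.2% of the 79, against 14.4% of all genes), and by diet with ABX, 1 rose and 1 fell (2.53% against 1.64%). With ABX 4 rose and 9 fell on CD (16.5% against 12.6%), and 2 rose and 8 fell on TDD (12.7% against 15.4%). The median log2 fold changes of the 79 genes, in this order, were 0.02, -0.04, -0.03 and -0.07.

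Of 7 genes that supply fucose, 0 passed by diet in SPF mice with edgeR or DESeq2, and 1 had an unadjusted p under 0.05. 1 of the 7 passed with ABX, Slc35c1, the Golgi transporter of GDP-fucose, which rose on CD (log2 fold change 0.34, q = 0.00644, edgeR) and on TDD (0.26, q = 0.0258). Among 4 other fucosyltransferase genes tested, Pofut1, which fucosylates Notch-type repeats, fell on TDD in SPF mice (-0.23, q = 0.0193). Of 5 genes of sialic acid supply, 0 passed in each comparison with edgeR or DESeq2, and 0 had an unadjusted p under 0.05. Of 13 other sialyltransferase genes, St3gal3 fell by diet in SPF mice (-0.54, q = 0.00765) and by ABX on CD (-0.41, q = 0.0385). St8sia4, a polysialic acid synthase, fell with ABX on CD (-0.60, q = 0.00819) and TDD (-0.42, q = 0.0482), and St8sia6 (-0.86, q = 0.0156) and St6galnac3 (-0.54, q = 0.0186) fell with ABX on TDD.

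Among 30 genes for mucin O-glycans and lactosamine, 3 rose and 3 fell by diet in SPF mice. Galnt15, of the family that starts O-glycans, had 6.998 ± 2.06 CPM in CD mice and 16.2 ± 1.05 CPM in TDD mice (SD, n = 5 each; log2 fold change 1.21, q = 7.21e-05, edgeR), and it also rose by diet with ABX (0.71, q = 0.0260) and fell with ABX on TDD (-0.84, q = 0.00236). Gcnt2, an I-branching enzyme, rose in SPF mice (0.33, q = 0.0399), as did Galnt11 (0.26, q = 0.0350), whereas Galnt10 (-0.30, q = 0.00439) and Galnt4 (-0.25, q = 0.0103) fell. Gcnt4, a branching enzyme like Gcnt3, moved the other way to it on TDD (-0.36, q = 0.00750 in SPF mice and -0.42, q = 0.0152 with ABX) and rose with ABX on CD (0.30, q = 0.0233). B3gnt6, which extends O-glycans in colon, rose with ABX on CD (1.03, q = 0.00669) from 0.754 ± 0.161 to 1.54 ± 0.325 CPM, and the 4 markers of colon or caecum, of which it is 1, summed to at most 3.91 CPM in any mouse. With ABX, B3galt5 (-0.42, q = 0.0414) and Galnt7 (-0.37, q = 0.0309) fell on CD, Gcnt1 (-0.75, q = 0.0333) fell on TDD, where Galnt10 rose (0.23, q = 0.0204), and B4galt4 fell on both (-0.27, q = 0.0410 and -0.28, q = 0.0346).

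B4galnt4, a relative of B4galnt2, had 17.5 ± 3.80 CPM in CD mice and 38.6 ± 6.52 CPM in TDD mice (SD, n = 5 each; log2 fold change 1.14, q = 0.000113, edgeR) and rose with ABX on CD (0.51, q = 0.0358). Ggta1, which makes the alpha-galactose epitope, fell with ABX on CD (-0.36, q = 0.0330) and TDD (-0.72, q = 0.000622). Of 10 glycolipid enzyme genes, Gal3st1 passed, by ABX on CD (-0.26, q = 0.0495). Of 7 glycosidase genes, Neu3 (-0.59, q = 0.0194), Hexa (-0.36, q = 0.00320) and Glb1 (-0.27, q = 0.0159) fell by diet in SPF mice, where 14.4% of all genes passed. The other 4 lay higher on TDD without passing, and the median log2 fold change of the 7 was 0.02. Neu3, a sialidase, fell also with ABX on CD (-0.68, q = 0.0101), and the lysosomal fucosidase gene Fuca1 fell with ABX on CD (-0.37, q = 0.0304) and TDD (-0.57, q = 0.00273).

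The axis of interleukin 22 and lymphotoxin, known to act on Fut2, was followed in 14 tested genes. Il22 itself had at most 3 counts in any mouse, was at 0 in all TDD+ABX mice and was not tested. By diet in SPF mice 2 of 14 rose and 0 fell (14.3%, against 14.4% of all genes), with a median log2 fold change of 0.38: Socs3, a feedback inhibitor of STAT3 signalling, went from 33.6 ± 9.12 to 137 ± 31.2 CPM (log2 fold change 2.03, q = 1.73e-05, edgeR), and Reg3b, an antimicrobial lectin, rose as well (1.88, q = 0.0390). Reg3g, the close relative of Reg3b, had 215 ± 74.7 CPM in CD mice and 607 ± 731 CPM in TDD mice (1.499, q = 0.0879). By diet with ABX, Socs3 rose (0.84, q = 0.0497). With ABX on TDD 5 of 14 fell (35.7%, against 15.4% of all genes), namely Saa1 (-4.53, q = 0.0157), Reg3b (-3.52, q = 0.00213), Reg3g (-3.24, q = 0.00277), Il22ra2 (-1.06, q = 0.0105) and Socs3 (-0.73, q = 0.0250), whereas on CD 0 of 14 passed with edgeR, against 12.6% of all genes, and 1 with DESeq2, and 3 had an unadjusted p under 0.05. The relation of these genes to the members was not tested.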

How the data were processed

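The study sequenced poly-A RNA of terminal ileum from 20 mice on an Illumina NovaSeq 6000. The authors ran kallisto 0.44.0 against GRCm38 transcripts, which shares reads among transcripts, and deposited estimated counts summed per gene, not normalized and already whole numbers, and TPM per transcript. Each library came from 1 mouse, with 36.7 to 58.7 M counts. No column of the deposited tables was left unmapped.

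The 16306 genes reaching 0.5 CPM in 1 mouse or more were scaled by TMM and tested with edgeR 4.0.16 (R 4.3.3; quasi-likelihood, robust, 4 groups in 1 fit). P-values were adjusted over all genes by Benjamini-Hochberg (q), and q under 0.05 passed. The study's 2-fold minimum was counted beside it. Alternatives were other scalings and filters, transcript sums, limma 3.58.1 (voom, log2(TPM + 1) and log2(TPM + 0.1)), DESeq2 1.42.0, the 2 groups alone, a block for replicate number, and each mouse left out. The procedure was tested on simulated data. Loci are GENCODE M21, matched by identifier for 111362 of 113193 transcripts. Promoter windows of RefSeq matched 7 of 10 members. Gene levels are compared in TPM, groups in CPM. Named genes were all members, up to 6 passing genes per list and comparison by size of change, Il22 and Reg3g, and the 5 genes most correlated with a member. The members and lists were chosen with earlier results of these data known. Some genes of the lists are not reported here, and counts and sums leave them out.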

Additional observations from a re-analysis of the deposited data

Results flagged for a closer look

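In the 40 sets of 5 mice formed by the 10 members and 4 groups, 2 held a mouse whose gap to the nearest other mouse exceeded 0.71 of the range of the group, where chance gives about 1 in 20. CD+ABX mouse 2 had Fut1 at 0.695 CPM, against 1.31 to 1.53 CPM in the other 4 mice. CD+ABX mouse 5 had B4galnt1 at 455 CPM, against 343 to 362 CPM in the others.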

How the results depend on the processing

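Of 540 values of single members under settings other than leaving out a mouse, 524 stayed on their side of the threshold, 13 were no longer past it and 3 came past it. With 1 mouse left out, 965 of 1000 did so, 32 were no longer past it and 3 came past it. No value that passed changed its sign. With the 2-fold minimum 0 members passed by diet in SPF mice, by ABX on CD and by ABX on TDD, where 3 passed without it in each. The count for ABX on CD was 1 with no filter on low counts, with limma-voom and with the replicate block. That for the interaction was 1 with DESeq2, which called 134 of 16306 genes there. With 1 mouse left out, the counts ranged from 2 to 5 by diet in SPF mice, from 1 to 3 by ABX on CD, from 1 to 3 by ABX on TDD and from 0 to 1 for the interaction, and stayed at 0 by diet with ABX. The count of 5 came without CD mouse 2, where 3098 of 16211 genes passed. The cause of these changes was not tested. The replicate numbers did not pair the mice: 5 of 30 same-numbered pairs had deviations correlated over 0.1 (range -0.355 to 0.248), and 1 of 20 mice correlated best with its own number. With the replicate block, the counts by diet in SPF mice and by ABX on TDD stayed at 3. By ABX on CD, Fut4 (log2 fold change 0.46, q = 0.0725) and St6gal1 (-0.72, q = 0.0645) did not pass with it. Fut1 and Fut2 had only 29 to 149 counts per mouse.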
